A study of Rattus norvegicus with 6 samples.

Results

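The miR-17-92 and miR-106b-25 clusters are paralogous groups of miRNA hairpins, each cut from a single primary transcript. Their members were followed by small RNA sequencing in rat hearts without injury and in rat hearts early in reperfusion. The 10 mature miRNAs were taken by name from a table of 1191 mature IDs, of which 699 carry miRBase names. All 10 were listed, 6 from miR-17-92 and 4 from miR-106b-25.

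The primary transcript of miR-17-92 is induced by Myc and is best known for driving proliferation and blocking apoptosis, and mice that lack the cluster die at birth with heart and lung defects. The miR-106b-25 hairpins lie in the gene of Mcm7, a replication helicase subunit, and are made with it in dividing cells. A mature miRNA recognises its targets mainly through its seed, here bases 2 to 8 from the 5′ end, so members with the same seed share many targets.

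The series holds 3 normal hearts, labelled WT and control, and 3 hearts labelled WT and ischemia-reperfusion. In the latter the left anterior descending coronary artery was tied for 0.5 h and blood flow was restored for 0.5 h, and they are called reperfused hearts below. The labels give no strain, age or sampled region, and they number the hearts without further identity. The p-values below cover only the scatter among these 6 samples. Tissue of this kind mixes muscle, vessels, fibroblasts and blood, and fewer cells of a type cannot be told apart from less RNA per cell.

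Total all-isoform counts were 6963312 to 8429988 in the normal libraries and 1376947 to 2814802 in the reperfused hearts, so depth and group go together. The heart muscle miRNAs (miR-1-3p, miR-1b, miR-133a-3p, miR-208a-3p and miR-499-5p) held 21.8% to 40.3% of the counts. Normal heart 1 stood apart in miR-1-3p, at 158000 CPM (counts relative to library size, as edgeR computes CPM, scaled with trimmed mean of M-values factors, TMM) against 21200 to 33600 CPM in the other 5 libraries. Predicted entries of the deposited table took 1.09% to 1.29% of the counts in normal libraries and 5.46% to 13.6% in the reperfused hearts.

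The mature sequences are shown because the seed sorts the members into groups that cut across both clusters. Capitals mark the seed, and rno- is the prefix for rat. The table's sequences were identical to those of RefSeq (GRCr8 build) for all 10.

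rno-miR-17-5p: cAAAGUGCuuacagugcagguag
rno-miR-20a-5p: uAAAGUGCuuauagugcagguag
rno-miR-93-5p: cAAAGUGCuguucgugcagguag
rno-miR-106b-5p: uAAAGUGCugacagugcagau
rno-miR-18a-5p: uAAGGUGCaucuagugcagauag
rno-miR-19a-3p: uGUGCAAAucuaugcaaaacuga
rno-miR-19b-3p: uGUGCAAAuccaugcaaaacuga
rno-miR-92a-3p: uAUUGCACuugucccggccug
rno-miR-25-3p: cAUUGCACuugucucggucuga
rno-miR-106b-3p: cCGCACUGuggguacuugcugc

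The miR-17 seed is shared by 4 members, 2 from each cluster. The miR-92 seed joins miR-92a-3p of miR-17-92 to miR-25-3p of miR-106b-25, and the miR-19 seed belongs to the miR-19a-3p and miR-19b-3p pair. The seeds of miR-18a-5p and of miR-106b-3p, the second arm of the miR-106b hairpin, stand alone among the members. Counted from the 5′ end, miR-19a-3p and miR-19b-3p differ by U11C, miR-17-5p and miR-20a-5p by C1U and C12U, and miR-92a-3p and miR-25-3p by U1C, C14U and C18U over the 21 bases compared. How well reads were split within the miR-19 pair was not tested.

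In GRCr8 the 6 mature sequences of miR-17-92 lie within 762 bases on the plus strand at chr15:98587861-98588622. The 4 of miR-106b-25 lie within 472 bases on the minus strand at chr12:22156652-22157123, inside the span of Mcm7 at chr12:22155921-22163320. The sequences of miR-17-5p, miR-19b-3p and miR-92a-3p occur a second time on the minus strand of chrX:137342945-137343637, in the paralogous miR-106a-363 cluster. Reads of the listed sequences of these 3 can therefore come from either chromosome. For miR-92a-3p, whose CPM below is that of its mir-92a-1 row, the most abundant form differs between the copies.

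Levels within the clusters spanned a wide range. By mean CPM over the 6 libraries miR-25-3p, known in mouse heart as a repressor of the calcium pump Serca2a, led with 829.4 CPM and ranked 58th by mean level among the miRBase-named miRNAs. The endothelial repressor of angiogenesis miR-92a-3p followed with 583.6 CPM. A middle group held miR-20a-5p at 119.9, miR-106b-3p at 114.2 and miR-93-5p at 113.4 CPM. Below these came miR-106b-5p at 42.05, miR-17-5p at 36.18, miR-19a-3p at 23.2 and miR-19b-3p at 22.76 CPM.

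In both groups of hearts the ranges of neighbours in this order overlapped within the middle group and within the miR-19 pair, and were apart at each other step. miR-18a-5p, which represses matrix genes such as Ctgf, was listed with 7, 10 and 7 counts in normal hearts 1 to 3. It had 4 counts in reperfused heart 2 and a blank cell, read as 0, in reperfused hearts 1 and 3. It was the 1 member that did not pass the filter on low counts.

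The sum of miR-17-92 was mostly miR-92a-3p, which held 67.4% to 79.4% of the cluster's counts in the 6 libraries. miR-20a-5p held 11.5% to 17.4%, miR-17-5p 3.71% to 6.49%, miR-19a-3p 1.84% to 4.49%, miR-19b-3p 1.95% to 5.87% and miR-18a-5p at most 0.263%. miR-25-3p was as prominent in miR-106b-25, with 72.8% to 77.4% of the counts. Within miR-106b-25, miR-106b-3p and miR-93-5p overlapped in both groups, as the miR-19 pair did within miR-17-92.

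The comparison of the groups asked whether the members differ early in reperfusion. Of the 9 members tested, miR-25-3p and miR-106b-3p were lower, both from miR-106b-25, and 0 were higher (edgeR quasi-likelihood test with Benjamini-Hochberg adjustment over 524 entries). Among the 305 miRBase-named miRNAs tested, 13.8% were called lower and 0.984% higher, and among all 524 entries 9.35% lower and 33.4% higher. The 175 entries called higher held 3 miRBase-named miRNAs, and the rest were predicted entries. For higher calls, 0 members had an unadjusted p under 0.05, and DESeq2 and limma-voom also called 0 members higher. The median log2 fold change was -0.23 over the 9 members and -0.40 over the 305 miRBase-named miRNAs. Relative to that second median, which moves with the scaling factors, 6 members lay above it and 3 below.

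**Figure D1:**
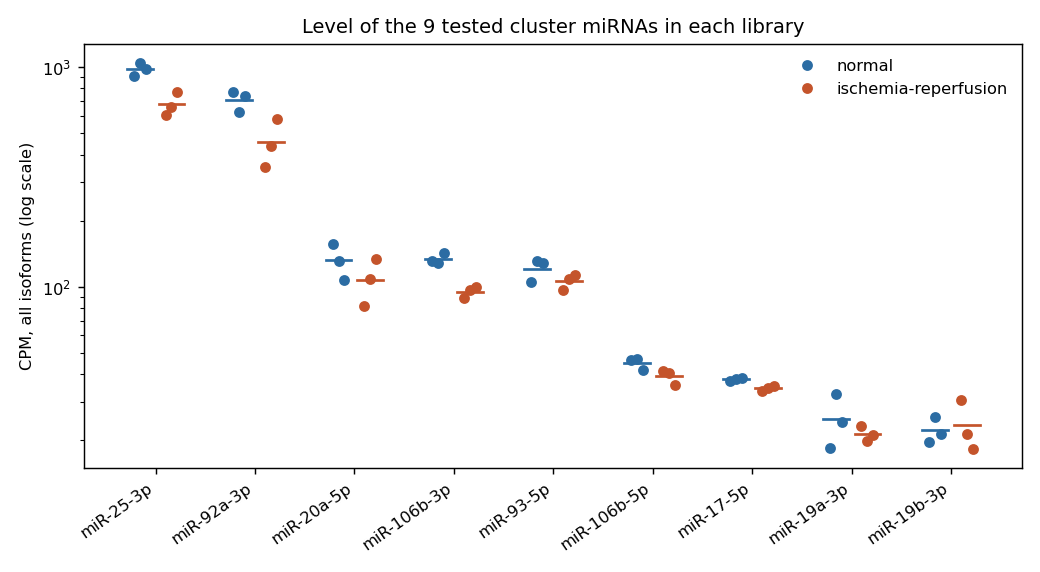
CPM of the 9 tested members in each library on a log axis, ordered by mean level. Points are single libraries and bars are group means (3 normal, 3 ischemia-reperfusion). miR-25-3p and miR-92a-3p stand above the others, and the groups of miR-25-3p, miR-92a-3p, miR-106b-3p, miR-106b-5p and miR-17-5p do not overlap under TMM scaling.

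rno-miR-25-3p was at 913.3, 1042 and 984.6 CPM in normal hearts 1 to 3 and at 607.3, 661.9 and 767.6 CPM in reperfused hearts 1 to 3. Every normal heart was above every reperfused heart. The means were 979.9 ± 64.4 and 679.0 ± 81.5 CPM (SD, n = 3 each), and the log2 fold change was -0.53 ± 0.15 (SE; edgeR adjusted p = 0.026). The call was lost without normal heart 2 (edgeR adjusted p = 0.0875), normal heart 3 (0.0603), reperfused heart 1 (0.106) or reperfused heart 2 (0.127). It held without normal heart 1 (edgeR adjusted p = 0.0306) and without reperfused heart 3 (0.0375). With factors from miRBase-named miRNAs the log2 fold change was -0.18 (0.310).

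rno-miR-106b-3p was at 130.9, 127.8 and 141.7 CPM in the normal hearts and at 88.7, 96.21 and 99.84 CPM in the reperfused hearts. These groups did not overlap either. The means were 133.5 ± 7.28 and 94.92 ± 5.68 CPM (SD, n = 3 each), with a log2 fold change of -0.49 ± 0.15 (SE; edgeR adjusted p = 0.0376). The call was lost without any library but normal heart 1, at edgeR adjusted p = 0.0772 without normal heart 2, 0.082 without normal heart 3, and 0.183, 0.145 and 0.138 without reperfused hearts 1, 2 and 3. It was also lost with factors from miRBase-named miRNAs (log2 fold change -0.14, 0.513).

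rno-miR-92a-3p had the lowest log2 fold change of the 9, -0.64 ± 0.22 (SE), and did not pass (edgeR adjusted p = 0.0514). It was at 768.0, 623.2 and 741.7 CPM in the normal hearts and at 349.6, 439.1 and 580.0 CPM in the reperfused hearts, with means of 711.0 ± 77.1 and 456.3 ± 116 CPM (SD, n = 3 each). The groups did not overlap, and the reperfused hearts were spread more widely than the normal ones. miR-92a-3p passed as lower without reperfused heart 3 (edgeR adjusted p = 0.0217), with DESeq2 (0.0470), with limma-voom (0.0431), with upper-quartile factors (0.0104) and with edgeR without a filter on low counts (0.0315). Without that filter miR-106b-3p did not pass (0.0996), so the 2 members called there were miR-25-3p and miR-92a-3p. Under 13 alternatives miR-92a-3p did not pass. Among them were scaling by total counts (edgeR adjusted p = 0.151) and the fits without each other library (0.0705 to 0.178). Factors from miRBase-named miRNAs were also among them (log2 fold change -0.30, edgeR adjusted p = 0.259).

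The members with the miR-17 seed, which repress cell cycle inhibitors such as Cdkn1a, had smaller log2 fold changes, and none passed. rno-miR-17-5p was at 37.19, 37.96 and 38.46 CPM in the normal hearts and at 33.67, 34.54 and 35.24 CPM in the reperfused hearts, so its groups were narrow and apart, with a log2 fold change of -0.13 ± 0.20 (SE; edgeR adjusted p = 0.594). miR-106b-5p went from 44.99 ± 2.69 to 39.1 ± 3.10 CPM, also without overlap (SD, n = 3 each; log2 fold change -0.20; edgeR adjusted p = 0.429). For miR-93-5p the means were 121.0 ± 14.1 and 105.9 ± 8.4 CPM, and for miR-20a-5p 131.9 ± 25 and 107.8 ± 25.9 CPM (SD, n = 3 each). Both overlapped, with log2 fold changes of -0.19 and -0.29 (edgeR adjusted p = 0.389 and 0.376). Scaled on miRBase-named miRNAs alone, the sign of all 4 turned positive, at 0.22 for miR-17-5p, 0.15 for miR-106b-5p, 0.16 for miR-93-5p and 0.04 for miR-20a-5p.

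The miR-19 pair was at lower counts and varied more. miR-19a-3p was at 18.44, 32.49 and 24.19 CPM in the normal hearts and at 23.31, 19.74 and 21.07 CPM in the reperfused hearts, and the reperfused hearts lay inside the normal range (log2 fold change -0.23 ± 0.31, SE; edgeR adjusted p = 0.559). miR-19b-3p was at 19.54, 25.61 and 21.28 against 30.43, 21.38 and 18.31 CPM, with the highest and the lowest value both in reperfused hearts (log2 fold change 0.07 ± 0.31, SE; edgeR adjusted p = 0.873). Its log2 fold change was below 0 without normal heart 1 (-0.096), normal heart 3 (-0.038) or reperfused heart 1 (-0.068). The sign of miR-19a-3p turned with factors from miRBase-named miRNAs (0.13).

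In all, under TMM scaling the CPM of 5 of the 9 tested members were lower in every reperfused heart than in every normal heart. This held for 38.7% of the miRBase-named miRNAs. The reverse held for 0 members and 2.3% of the miRBase-named miRNAs. Separation of the groups depends on the scaling. Of the 5 members, miR-17-5p and miR-106b-5p had log2 fold changes of 0.106 and 0.0397 with total counts. Those of miR-25-3p, miR-106b-3p and miR-92a-3p stayed below 0. Calls moved with the scaling, for members and background together. With factors from miRBase-named miRNAs 0 members were called lower, as were 4.26% of the miRBase-named miRNAs, with 4.59% higher. Fitted alone, 0.984% of the miRBase-named miRNAs were lower and 1.64% higher, and with total counts 5.25% and 3.28%, each with 0 members. RLE factors (median ratios) called 1 member and 10.2% lower and 1.31% higher, and upper-quartile factors 5 members and 47.5% lower.

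**Figure D2:**
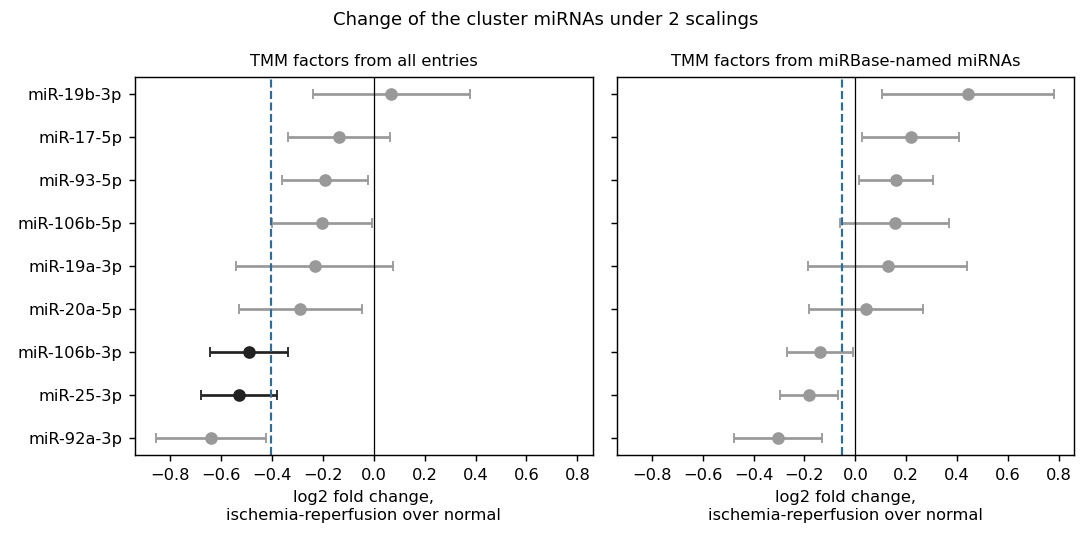
Log2 fold change (points) with its standard error (bars) for the 9 tested members, with TMM factors from all entries on the left and from miRBase-named miRNAs on the right. Black points passed edgeR at adjusted p 0.05, and the dashed line is the median of the 305 miRBase-named miRNAs, at -0.40 on the left and -0.05 on the right. The order of the members is the same on both sides, while 5 of them lie below 0 on the left and above 0 on the right.

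The authors' deposited table gives folds of group means with 10 added to each. In the authors' deposited table the fold of ischemia-reperfusion over normal was 0.822 for miR-25-3p, 0.864 for miR-106b-3p and 0.766 for miR-92a-3p in its mir-92a-1 row. For miR-17-5p in its mir-17-1 row the authors' deposited table has 1.10, for miR-93-5p 1.07 and for miR-106b-5p 1.08. The false discovery rate in the authors' deposited table was 0.156 to 1.0 over the 13 rows of members, and 0.17% of its 589 rows were under 0.05.

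Sums over members are given as values, with no test. miR-17-92 summed to 1002, 851.8 and 933.7 CPM in the normal hearts and to 518.6, 624.9 and 788.0 CPM in the reperfused hearts. miR-106b-25 summed to 1195, 1347 and 1296 CPM against 833.9, 907.0 and 1016 CPM. Under TMM scaling both sums were lower in each reperfused heart than in every normal heart. This held for 38.7% of the tested miRBase-named miRNAs. Both sums are carried by a miR-92 seed member. As a share of all counts miR-17-92 held 0.081% to 0.0913% in normal and 0.0582% to 0.081% in reperfused hearts, so its groups met at 0.081%. miR-106b-25 held 0.109% to 0.128% and 0.0935% to 0.104%. Members with the miR-92 seed summed to 1665 to 1726 CPM in normal hearts and 956.9 to 1348 CPM in the reperfused hearts. Those with the miR-17 seed summed to 315.5 to 346.3 and 253.2 to 316.8 CPM, and the miR-19 pair to 37.97 to 58.09 and 39.38 to 53.74 CPM, both with overlap.

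Ratios of counts within a library do not depend on scaling factors, and they were compared after the values above were seen. Over both clusters together, counts of the miR-92 seed members were 4.87, 4.81 and 5.47 times those of the miR-17 seed members in the normal libraries and 3.78, 3.77 and 4.25 times in the reperfused hearts, so the ratio was lower in each reperfused heart. This pooled ratio is given as a value, with no test or background share. Within miR-106b-25, miR-25-3p exceeded miR-93-5p 8.72, 7.99 and 7.70 times in the normal hearts and 6.30, 6.10 and 6.82 times in the reperfused hearts. miR-106b-3p stood to miR-93-5p at 1.25, 0.98 and 1.11 in the normal hearts and at 0.919, 0.886 and 0.887 in the reperfused hearts. Within miR-17-92, miR-92a-3p exceeded miR-20a-5p 4.88, 4.75 and 6.92 times in the normal hearts against 4.29, 4.05 and 4.35 times.

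These 3 pairs of single miRNAs were those without overlap among 16 pairs of tested members within a cluster, 18.8% of them. Of all 41616 pairs of miRBase-named miRNAs with counts in every library, 23.4% did not overlap. Each of the 3 had a two-sided exact permutation p = 0.1, the lowest that 3 against 3 can give, and an adjusted p of 0.428 over all pairs.

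**Figure D3:**
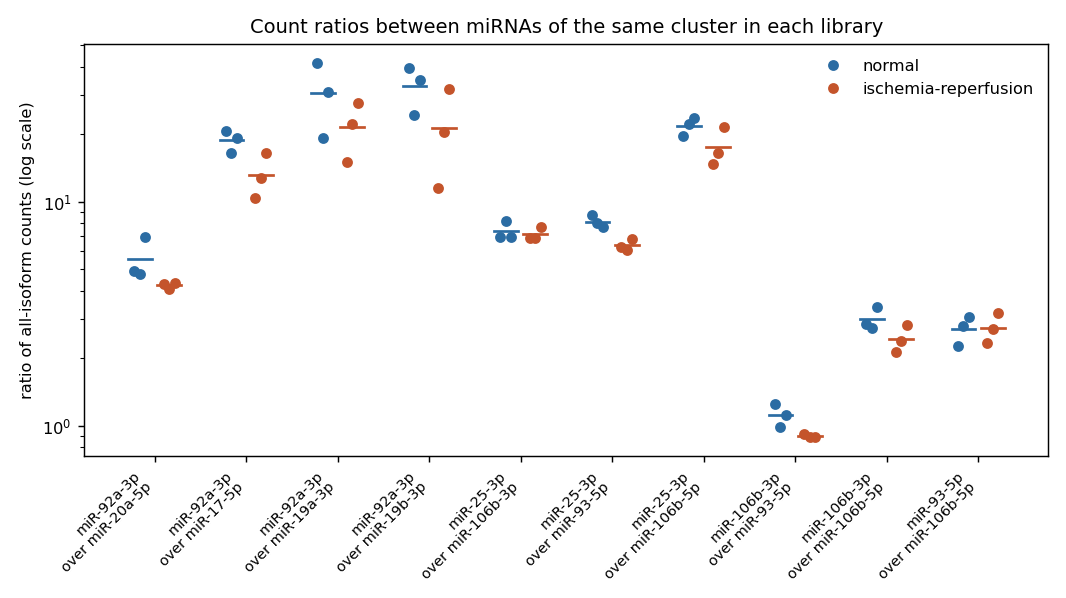
Ratio of all-isoform counts between members of the same cluster in each library, on a log axis, for the pairs that hold miR-92a-3p and for all pairs of miR-106b-25. Points are single libraries and bars are group means. The groups are apart for miR-92a-3p over miR-20a-5p, miR-25-3p over miR-93-5p and miR-106b-3p over miR-93-5p, and overlap for the other 7 pairs shown.

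The miR-106b hairpin is the member hairpin with both arms tested. miR-106b-5p is usually taken as its guide strand, while the 3p arm had the higher count in each library. Whether counts of different sequences reflect the levels of the arms was not tested. The 3p arm had 2.83, 2.73 and 3.38 times the counts of the 5p arm in the normal hearts and 2.14, 2.39 and 2.81 times in the reperfused hearts. The groups overlapped, with a log2 difference of -0.29 (exact permutation test, two-sided p = 0.2, adjusted p = 0.5 over 80 hairpins). Over these 80 hairpins, 12.5% had a lower and 10% a higher ratio without overlap.

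The other passenger strands were near the limit of the table. The 11 listed summed to 29, 50 and 42 counts in the normal libraries and to 5, 7 and 2 counts in the reperfused hearts, where libraries were shallower. Their share of all counts was 0.000416% to 0.000605% in normal hearts and 7.11e-05% to 0.000363% in the reperfused hearts, with no test. The highest single value was 16 counts, for miR-17-1-3p in normal heart 2, and 0 of the 11 passed the filter. Of the paralogous miR-106a-363 cluster, 4 of 5 IDs were in the table, and miR-363-3p, which has the miR-92 seed, was the 1 tested. It was at 29.2, 45 and 45.2 CPM in the normal hearts and 31.7, 30 and 28 CPM in the reperfused hearts (log2 fold change -0.41 ± 0.26, SE; edgeR adjusted p = 0.248). Its groups overlapped through normal heart 1.

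Other miRNAs of the table with a member's seed were miR-363-3p, miR-32-5p, miR-92b-3p and miR-20b-5p. miR-32-5p, from another locus, was at 27.3, 40.1 and 38.3 CPM in the normal hearts and 33, 30 and 20.4 CPM in the reperfused hearts (log2 fold change -0.35 ± 0.30, SE; edgeR adjusted p = 0.376), with overlap. miR-92b-3p had at most 8 counts and miR-20b-5p at most 9 counts in a library, and neither was tested. Across these relatives 0 of 2 tested passed edgeR in either direction, 0 had an unadjusted p under 0.05, and DESeq2 and limma-voom also called 0.

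Sequence variants are shown next because for 5 members the sequence that the table gives as most abundant was not the listed mature one. For miR-18a-5p both had 9 counts over the 6 libraries. For the other 5, miR-17-5p, miR-20a-5p, miR-93-5p, miR-25-3p and miR-106b-3p, it was. Among the 305 tested miRBase-named miRNAs the listed sequence was the most abundant for 38.7%. The variants are printed as the table spells them, with capitals for a base that differs from the listed sequence or extends it at the 3′ end.

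miR-18a-5p: taaggtgcatctagtgcagat
miR-19a-3p: tgtgcaaatctatgcaaaactgT
miR-19b-3p: tgtgcaaatccatgcaaaactgT
miR-92a-3p, mir-92a-1 row: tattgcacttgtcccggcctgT
miR-92a-3p, mir-92a-2 row: tattgcacttgtcccggcctgA
miR-106b-5p: taaagtgctgacagtgcagatA

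Each variant starts at the listed 5′ end, so the seed was the same. For miR-19a-3p and miR-19b-3p the change is A23U, and the variant does not occur in the RefSeq hairpins of Mir19a, Mir19b1 or Mir19b2. For miR-92a-3p the table's 21 bases are extended by 1, with a base that the hairpin of the same row holds. The final U occurs in the hairpin of Mir92a1 on chromosome 15 and the final A in that of Mir92a2 on chromosome X.

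The listed sequence of miR-92a-3p had 10, 9 and 9 counts in the normal libraries, against 2277, 1844 and 2289 counts for the form ending in U. The listed sequence thus held 0.16% to 0.205% of the counts of miR-92a-3p in normal libraries and at most 0.238% in the reperfused hearts. The 95% Wilson intervals of these shares reached 0.706% at most. Counting by the listed sequence alone would therefore miss nearly all reads of the second most abundant member. The form ending in A had 287, 183 and 256 counts in the normal libraries and 31, 45 and 86 counts in the reperfused hearts. It made up 10.1% ± 1.08 of both forms in normal hearts and 9.91% ± 1.46 in the reperfused hearts (SD over 3 hearts a group; two-sided exact permutation p = 1.0).

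miR-17-5p and miR-19b-3p each have a row for the copy on chromosome 15 and a row for the copy on chromosome X, with the same counts of the listed sequence in both. miR-17-5p had 236, 298 and 291 counts in its mir-17-1 row and 207, 269 and 262 counts in its mir-17-2 row in the normal libraries. In the reperfused hearts it had 52, 84 and 102 counts in the mir-17-1 row and 41, 72 and 92 counts in the mir-17-2 row, so the mir-17-1 row was the higher in all 6 libraries. The rows of miR-19b-3p differed in normal heart 2, with 199 and 201 counts, and were equal in the other 5 libraries. Whether the rows share tags was not tested.

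The share of the listed sequence separated the groups for miR-17-5p. It was 29.7%, 31.9% and 31.6% in the normal hearts and 21.2%, 26.2% and 25.5% in the reperfused hearts, lower in each reperfused heart. The means were 31.1% ± 1.21 and 24.3% ± 2.73 (SD, n = 3 each), a difference of -6.77 percentage points (two-sided exact permutation p = 0.1, the lowest that 3 against 3 can give, adjusted p = 0.431 over 289 miRBase-named miRNAs). The 95% Wilson interval was 26.8% to 37.4% in normal heart 2 and 12.2% to 34.0% in reperfused heart 1, which rests on 52 counts. The other 8 tested members overlapped. Over the 289 miRNAs, the share was lower without overlap for 7.61% and higher for 15.6%.

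The listed sequence held its highest shares in miR-25-3p and miR-20a-5p. It made up 46.6% to 53.5% of miR-25-3p and 44.4% to 54.8% of miR-20a-5p in the 6 libraries, against a median of 16.6% over the 289 miRNAs. It held 28.9% to 34.2% of miR-93-5p, 20.5% to 29.9% of miR-106b-5p and 20.7% to 25.3% of miR-106b-3p. For miR-19a-3p it was 0.0% to 6.84% and for miR-19b-3p 6.38% to 10.5%, while the form with A23U held 52.1% to 69.4% and 43.4% to 53.8%. The most abundant sequence of miR-17-5p is the listed one, so its share is the same value by either measure. By the share of the most abundant sequence the other 8 tested members overlapped, and over the 289 miRNAs it was lower without overlap for 6.92% and higher for 18%.

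**Figure D4:**
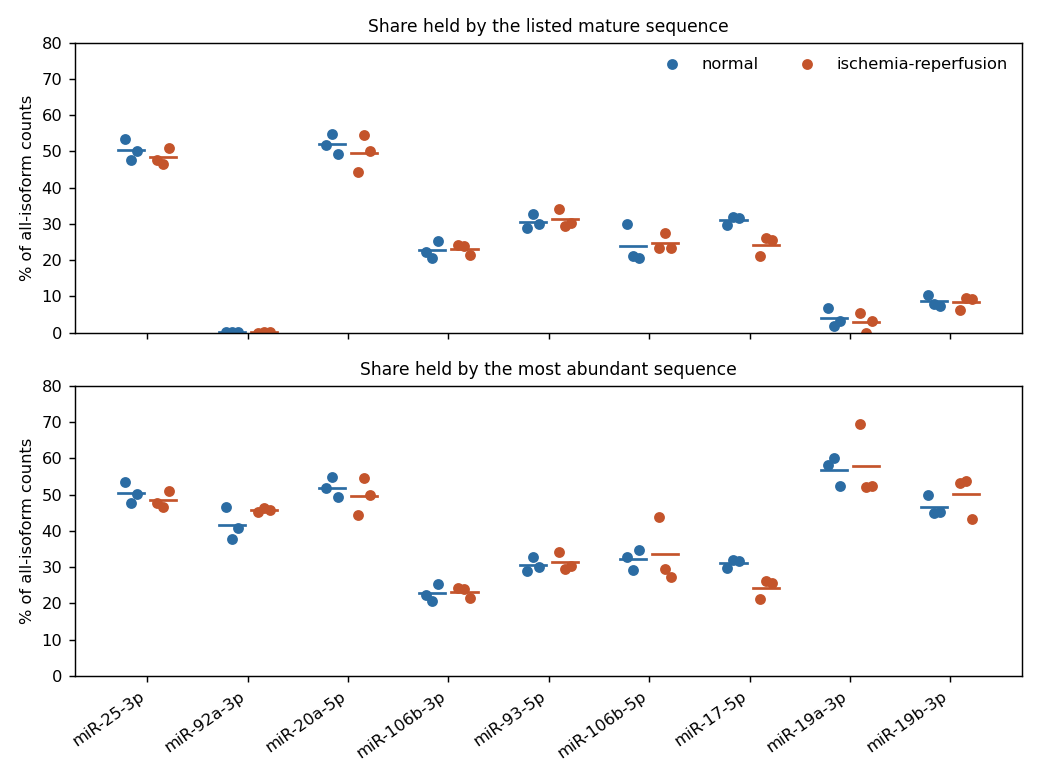
Percent of each member's all-isoform counts held by the listed mature sequence (top) and by the most abundant sequence (bottom) in each library. Points are single libraries and bars are group means. The listed sequence of miR-92a-3p is near 0 in all 6 libraries, its most abundant form is at 37.7% to 46.7%, and the groups of miR-17-5p are apart.

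Several members are abundant in blood cells, and markers of other cells were measured beside them. The 4 red cell miRNAs held 0.238% to 0.263% of counts in normal hearts and 0.164% to 0.203% in the reperfused hearts, lower without overlap. This sum is given as values, with no test or background share. Most of its counts were those of miR-486, at 15580 of 16599 in normal heart 1 and 3512 of 4447 in reperfused heart 2. Of the 2 tested, miR-486, which muscle also expresses, fell (log2 fold change -0.78; edgeR adjusted p = 0.0103) and miR-451-5p did not pass (1.21; 0.195). miR-144-3p had at most 9 counts in a library, and miR-144-5p was blank in normal heart 3 and reperfused heart 1. The 5 leukocyte miRNAs held 0.0540% to 0.0651% and 0.0548% to 0.0610% of counts, with overlap. Of these, miR-142-5p was the 1 called lower (edgeR adjusted p = 0.0248). The endothelial miR-126a arms held 5.45% to 10.6% and 5.73% to 7.13%. Of its 2 arms 0 passed edgeR, 1 had an unadjusted p under 0.05, and DESeq2 and limma-voom called 0. Of the 4 smooth muscle and fibroblast miRNAs 0 passed edgeR, DESeq2 or limma-voom, and 0 had an unadjusted p under 0.05 by edgeR. Of the 5 heart muscle miRNAs, miR-499-5p was called lower (log2 fold change -0.70, edgeR adjusted p = 0.0307). Under the same TMM factors 13.8% of the miRBase-named miRNAs were called lower and 0.984% higher. With factors from miRBase-named miRNAs these shares were 4.26% and 4.59%, and marker calls under them are not given. The liver miRNA miR-122-5p rose from between 0.00273% and 0.00753% of counts to between 0.00814% and 0.0972% (log2 fold change 3.26; edgeR adjusted p = 0.0202). Its CPM overlapped, with 82.6, 38.5 and 30.4 in the normal hearts and 867, 510 and 79.1 in the reperfused hearts, so reperfused hearts 1 and 2 were high and reperfused heart 3 lay within the normal range. The part of these cells in the members' values was not tested.

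By the smallest root mean square difference of log2 CPM, each centred on its own mean over the 6 libraries, the pattern of the miR-17-92 sum was most like that of miR-99b-5p (0.0859 log2 units), miR-28-3p (0.0939) and miR-30a-3p (0.0956) among 280 miRBase-named miRNAs. The median over the 280 was 0.351. For the miR-106b-25 sum the nearest were miR-145-3p (0.0376), miR-378a-5p (0.0576) and miR-351-5p (0.0652), with a median of 0.308. miR-145-3p was at 901.1, 1010 and 940.6 CPM in the normal hearts and at 619.6, 677.2 and 709.9 CPM in the reperfused hearts.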

How the data were processed

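Small RNA was sequenced from 6 rat hearts on an Illumina NextSeq after adaptor ligation, PCR and size selection, per the labels' protocols. Novoalign 2.07.11 is named in the submitters' processing notes; no source used here gives its role, the genome build or the miRBase release. The authors deposited raw counts of tags for each mature ID and precursor, separately for the listed sequence, its most frequent variant and all isoforms, per the file headers. Blank cells were read as 0; the smallest listed count is 2. The authors' normalized values are whole numbers treated as a score and used in an alternative only. A second deposited table compares the groups by the ratio (fold) of mean scores after adding 10, with its p-value and false discovery rate, per the file headers; 18 columns of repeated normalized values in it were not used.

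The highest-total row was kept for each mature ID. Counts were tested with edgeR 4.0.16 under R 4.3.3 (minimum count of 10 in filterByExpr, TMM, robust quasi-likelihood F test, Benjamini-Hochberg at 0.05, all 524 entries in the fit); SEs were taken as |log2 fold change| over the root of F. DESeq2 1.42.0 and limma 3.58.1 were alternatives. Shares and ratios were compared with two-sided exact permutation tests, with 95% Wilson intervals that cover counting error only, since PCR reads are not independent molecules. The edgeR and permutation steps were tested on simulated data. All members are named; from the lists, those passing the test or with the highest CPM, up to 3. The members and lists were chosen with earlier results of these data known. Sequences and positions are from RefSeq (GRCr8).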

Additional observations from a re-analysis of the deposited data

How the results depend on the processing

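The count of 2 members called lower after ischemia-reperfusion was 1 with RLE factors and with exact mature sequence counts, and 5 with upper-quartile factors. DESeq2 and limma-voom each called 3 members lower, miR-25-3p, miR-106b-3p and miR-92a-3p. They called 49 and 38 of the 305 miRBase-named miRNAs lower. The count was 0 with total counts, factors from miRBase-named miRNAs, miRBase-named miRNAs fitted alone, most abundant sequence counts and the authors' normalized values with limma. When 1 library was left out it was 0 to 2. Lower calls of miRBase-named miRNAs were 13 of 198 with exact mature sequence counts and 24 of 264 with most abundant sequence counts. They were 17 of 305 with the authors' normalized values. With 1 library left out they ran from 8 of 338 (reperfused heart 2) to 67 of 286 (normal heart 1). With the replicate block the count of members was also 0, beside 15 of 305 miRBase-named miRNAs. Same-numbered libraries did not deviate together (correlations of -0.236, 0.0123 and -0.161, and 0 of 6 libraries correlated best with their own number). With so few libraries this cannot settle whether the numbers pair the hearts, and the labels do not say. The count of lower calls stayed 2 with no filter and without reperfused heart 3, but as miR-25-3p and miR-92a-3p. The count of 0 called higher held under all alternatives. Log2 fold changes turned sign as follows. With total counts they were 0.106 for miR-17-5p, 0.00451 for miR-19a-3p, 0.046 for miR-93-5p and 0.0397 for miR-106b-5p. With factors from miRBase-named miRNAs and with these fitted alone they were 0.217 and 0.214 for miR-17-5p, 0.127 and 0.114 for miR-19a-3p, 0.0405 and 0.0447 for miR-20a-5p, 0.16 and 0.16 for miR-93-5p, and 0.154 and 0.146 for miR-106b-5p. With exact mature sequence counts they were 0.0657 for miR-93-5p and 0.0636 for miR-106b-5p. With the authors' normalized values they were 0.142 for miR-17-5p, 0.0532 for miR-19a-3p, 0.104 for miR-93-5p and 0.114 for miR-106b-5p. miR-19b-3p was at -0.474 with upper-quartile factors, -0.0247 with no filter and -0.000302 with limma-voom, and between -0.096 and 0.359 when 1 library was left out. The log2 difference of summed CPM was -0.547 for miR-17-92 and -0.48 for miR-106b-25 under TMM scaling. With upper-quartile factors these values were -1.07 and -1.01, and with factors from miRBase-named miRNAs -0.194 and -0.128. With total counts they were -0.305 and -0.239. The causes were not tested. At the depth of these libraries miR-18a-5p and the passenger strands had too few counts for a test.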
